A study of Arabidopsis thaliana with 19 samples.

Results

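Arabidopsis thaliana seedlings carrying an artificial microRNA construct named ATR1_like were compared directly with seedlings carrying a construct named MYB28_like, without wild type seedlings between them. The comparison took the 4 arrays titled for these constructs, 2 for ATR1_like_miR and 2 for MYB28_like_miR, out of 19 in the series. The titles place both constructs behind 35S, a cauliflower mosaic virus promoter active in most plant cells. The seedlings were 14 days old, raised at 20 °C under a short day of 10 h light and 14 h dark. Their cotyledons and hypocotyls had been removed, and 15 µg of total RNA went to each Affymetrix ATH1 array. The same experiment held 2 arrays of wild type seedlings grown the same way (WT_miR), whose values are given beside the others as a reference level. The labels do not say how many transgenic lines a construct stands for, nor whether replicates were grown separately. The p-values weigh the spread between arrays of the same group, pooled over all 19 arrays of the series. Some of that spread may be technical.

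An artificial microRNA is a plant microRNA precursor in which the mature stretch has been exchanged, so that the plant's own machinery cuts chosen transcripts. MYB28 is a transcription factor that switches on the synthesis of aliphatic glucosinolates, the sulfur-rich defence compounds that Arabidopsis builds from methionine. ATR1, also called MYB34, does the same for indolic glucosinolates, which are built from tryptophan. The probe sets for MYB28, ATR1 and their MYB relatives carry no gene name in the annotation used here, so the level of the targeted transcripts is not reported.

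Signal is the MAS5 probe set intensity, a linear value without a physical unit. The median signal of the 4 arrays lay between 87.8 and 94.1. Each array's 20th percentile, between 12.4 and 15.4 on these 4 arrays, served as a floor below which levels were not ranked. For MYB28_like_miR replicate 2 the source field names 35S:ATR1 while the title names MYB28_like, and the title was followed. Across the 15627 probe sets measured, this array correlated with its own partner at r = 0.9635, and with the ATR1_like_miR arrays at r = 0.9542 and 0.9468. MYB28_like_miR replicate 1, in turn, correlated with ATR1_like_miR replicate 2 at r = 0.9675, above its correlation with its own partner. The ATR1_like_miR arrays correlated with each other at r = 0.9717. These are correlations across genes, which are not independent replicates. The source field 35S:ATR1 could also mean the ATR1 overexpressors of the series, whose arrays were not compared in this way. The median absolute log2 difference was 0.25 between the ATR1_like_miR arrays, 0.30 between the MYB28_like_miR arrays, and 0.25 to 0.35 between arrays of different constructs. The arrays of different constructs were thus separated by about as much as arrays of the same construct.

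Root, seed and flower markers and, for leaves, nuclear genes of the RuBisCO small subunit and of light-harvesting proteins were looked up, and the only one with a named probe set was EXPA7, an expansin of root hairs. Its signal was 33.5 and 6.57 in ATR1_like_miR and 16.8 and 19.1 in MYB28_like_miR, so that 1 of the 4 arrays was at the floor and the others were low. The organ could therefore not be checked with nuclear photosynthesis, seed or flower markers. Transcripts encoded in the plastid were present, and the RuBisCO large subunit gene rbcL reached 448 and 756 in ATR1_like_miR and 273 and 144 in MYB28_like_miR.

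With 2 arrays for each construct, few probe sets differed between the constructs at the adjusted threshold. In the limma model 5 of 15627 probe sets passed an adjusted p of 0.05, which is 0.032% of those tested. Of these, 1 was higher in ATR1_like_miR (0.0064%) and 4 were lower (0.0256%). Without adjustment 1214 probe sets had a p under 0.05, or 7.77%. A difference of at least 2-fold with arrays that did not overlap was seen in 411 probe sets (2.63%), of which 164 were higher and 247 lower in ATR1_like_miR. The median difference over all probe sets tested was 0.05 on the log2 scale. In the other experiments of the series the same model called 4 probe sets (0.0256%) between MYB29 and MYB76 overexpressors and 417 (2.67%) between ATR1 and MYB51 overexpressors.

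**Figure D1:**
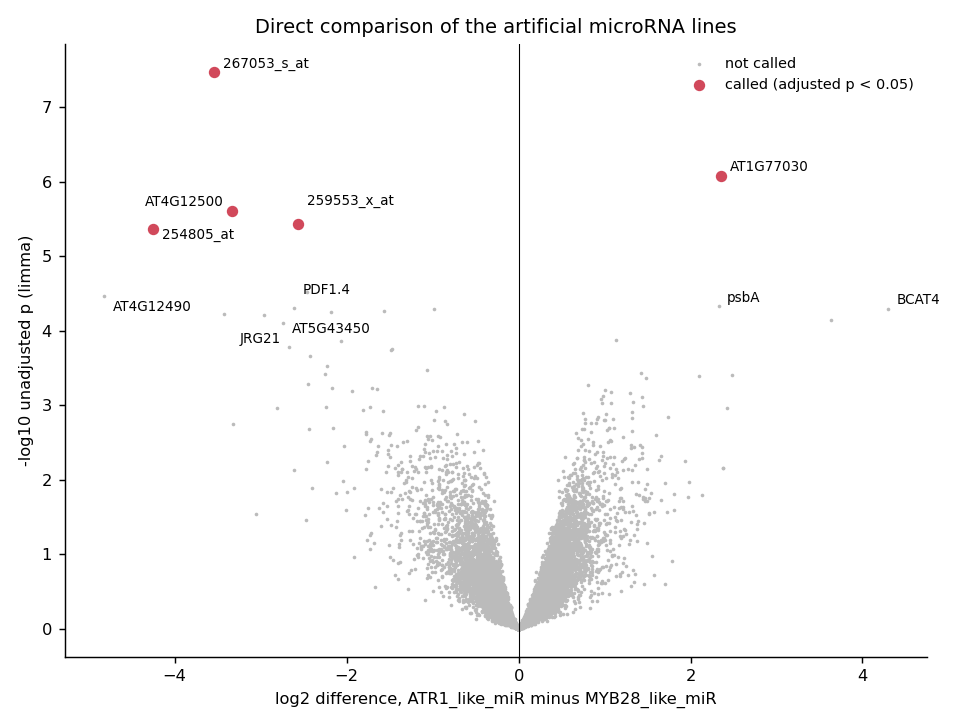
Log2 difference of signal between ATR1_like_miR and MYB28_like_miR (horizontal axis, positive where ATR1_like_miR was higher) against −log10 of the unadjusted p from limma (vertical axis) for the 15627 probe sets tested, 1 point each. The 5 red points passed the adjusted p of 0.05: AT1G77030 stands on the right and the other 4 on the left, while BCAT4, psbA, PDF1.4 and AT4G12490 lie below them and did not pass.

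The probe set that was higher with the ATR1_like construct belongs to AT1G77030, a gene on chromosome 1 to which the annotation gives no symbol. Its signal was 131 and 76.6 in ATR1_like_miR, 17.3 and 22.2 in MYB28_like_miR, and 146 and 189.8 in WT_miR. The MYB28_like_miR arrays were low and close to the floor, and the groups did not overlap. The level was 5.12-fold higher in ATR1_like_miR (log2 difference 2.35 ± 0.30, SE, n = 2 arrays each, limma adjusted p = 0.00652).

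The 4 probe sets that were lower with the ATR1_like construct had low signals there and clear signals with the MYB28_like construct. AT4G12500, on chromosome 4, gave 12.6 and 2.94 in ATR1_like_miR, 99.8 and 194 in MYB28_like_miR, and 15.6 and 17.3 in WT_miR. Both ATR1_like_miR arrays and both WT_miR arrays lay at the floor. The size of the difference between the constructs therefore depends on the floor. AT4G12500 was estimated as 10.1-fold lower in ATR1_like_miR than in MYB28_like_miR (log2 −3.33 ± 0.46, SE, limma adjusted p = 0.0128). Its neighbour AT4G12490 gave 36.0 and 22.2 in ATR1_like_miR, 1005 and 635 in MYB28_like_miR, and 35.3 and 30.3 in WT_miR. That is a 28.3-fold difference (log2 −4.82 ± 0.84, SE, n = 2 each), which did not pass (limma adjusted p = 0.0646). In the RefSeq table both loci follow AZI1 and EARLI1, genes of small proline-rich lipid transfer proteins of which AZI1 is known for its part in priming of systemic immunity. AZI1 and EARLI1 have no named probe set here. Signal of neighbouring genes with similar sequence could be shared between probe sets, and this was not tested.

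The other 3 called probe sets have no single gene in the annotation and are given by their identifier, 267053_s_at having been chosen after its values were seen. Probe set 267053_s_at, which the annotation assigns to several genes, gave 22.9 and 28.1 in ATR1_like_miR, 279 and 312 in MYB28_like_miR, and 28.5 and 26.2 in WT_miR. Its ATR1_like_miR signals lay at the WT_miR level, 11.6-fold below those of MYB28_like_miR (log2 −3.54 ± 0.35, SE, limma adjusted p = 0.000528). Probe set 254805_at, with no listed gene, gave 2.49 and 0.553 in ATR1_like_miR and 185 and 374 in MYB28_like_miR, against 2.41 and 2.89 in WT_miR. All arrays but those of MYB28_like_miR were at the floor, so the size of the difference depends on the floor. The signal was estimated as 19.1-fold lower in ATR1_like_miR than in MYB28_like_miR (log2 −4.25 ± 0.62, SE, limma adjusted p = 0.0135). Probe set 259553_x_at, also without a listed gene, gave 57.5 and 51.4 in ATR1_like_miR, 239 and 433 in MYB28_like_miR, and 14.4 and 15.2 in WT_miR. Here the ATR1_like_miR arrays stood above WT_miR and 5.91-fold below MYB28_like_miR (log2 −2.56 ± 0.37, SE, limma adjusted p = 0.0135).

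**Figure D2:**
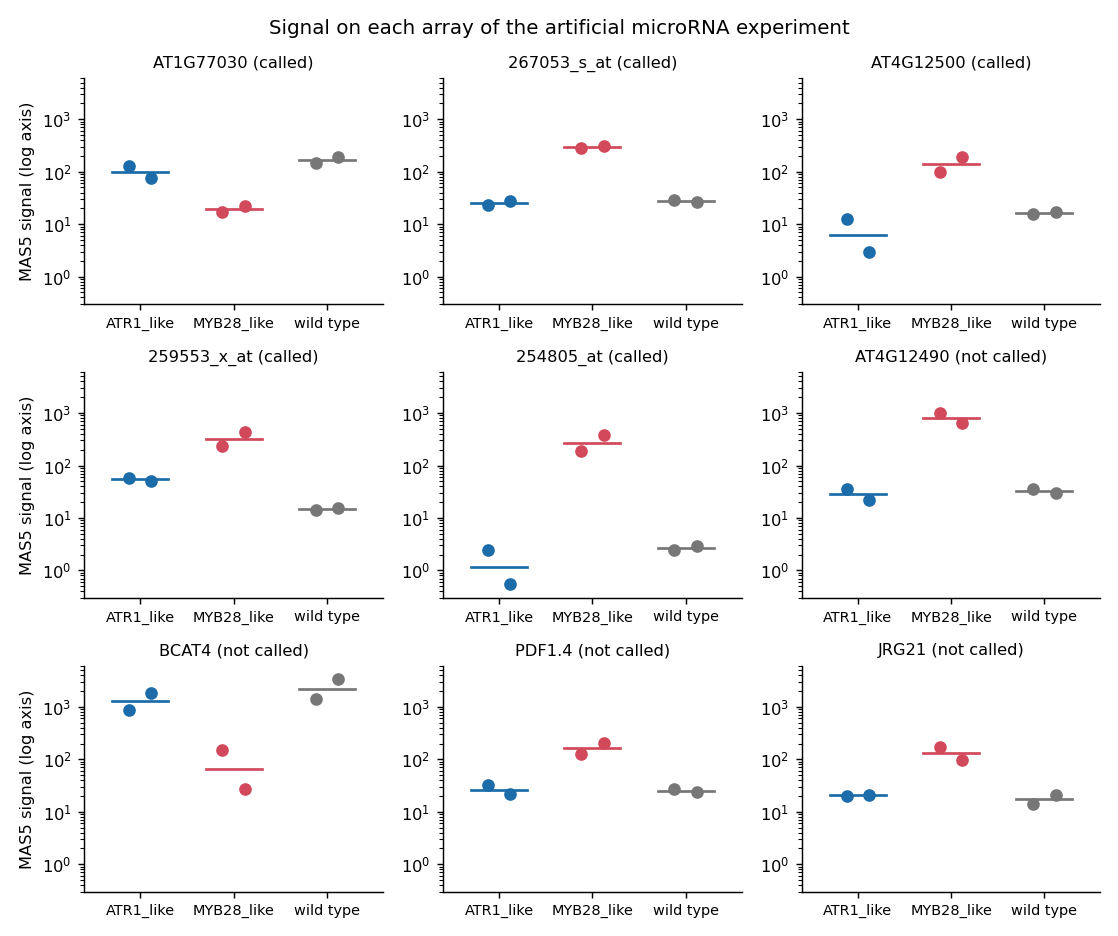
MAS5 signal (log axis) of 9 probe sets on each array of the experiment, with 2 arrays each of ATR1_like_miR, MYB28_like_miR and wild type (WT_miR). Points are single arrays and bars are geometric means; in 7 of the panels the MYB28_like_miR points lie above all others, and for AT1G77030 and BCAT4 they lie below.

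Leaving out the array with the conflicting label, MYB28_like_miR replicate 2, kept 2 of these 5 calls. AT1G77030 then differed by 2.53 (limma adjusted p = 0.0308) and 267053_s_at by −3.46 (limma adjusted p = 0.0198) on the log2 scale. AT4G12500 (adjusted p = 0.176), 254805_at (0.1995) and 259553_x_at (0.203) no longer passed the limma test. Those same 3 also missed it without ATR1_like_miR replicate 1 (adjusted p = 0.108 for each) or replicate 2 (0.282, 0.293 and 0.293). AT1G77030 missed it without ATR1_like_miR replicate 1 (adjusted p = 0.108), and all 5 passed without MYB28_like_miR replicate 1.

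Among the genes that did not pass, the largest difference toward ATR1_like_miR was that of BCAT4, a methionine aminotransferase that starts the chain elongation of aliphatic glucosinolates. Its signal was 889 and 1813 in ATR1_like_miR, 151 and 27.6 in MYB28_like_miR, and 1431 and 3386 in WT_miR. The groups did not overlap, and the MYB28_like_miR arrays differed widely from each other. The difference was 19.7-fold (log2 4.30 ± 0.78, SE, 95% interval 2.64 to 5.95, limma adjusted p = 0.0646). Without MYB28_like_miR replicate 2 it was 3.07 (adjusted p = 0.568), and without replicate 1 it was 5.53 and passed limma's threshold (adjusted p = 0.0143). Against WT_miR, whose 2 arrays serve both comparisons, BCAT4 fell by 5.09 on the log2 scale in MYB28_like_miR (limma adjusted p = 0.00164). In ATR1_like_miR it differed from WT_miR by −0.79 (limma adjusted p = 0.673). Those comparisons with WT_miR called 6.43% and 2.02% of all probe sets, respectively.

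The other measured genes of aliphatic glucosinolate synthesis gave smaller differences. With BCAT4 included, 6 of the 28 genes listed were measured and none passed the limma test, beside 0.032% of all probe sets. An unadjusted p under 0.05 was seen in 2 (BCAT4 and AOP3), beside 7.77% of all probe sets. The median difference of the 6 was 0.21, with 3 positive and 3 negative. AOP3, a dioxygenase that modifies the glucosinolate side chain, gave 1018 and 1516 in ATR1_like_miR, 635 and 502 in MYB28_like_miR, and 1266 and 2881 in WT_miR. Its signal was 2.2-fold higher in ATR1_like_miR without overlap (log2 1.14 ± 0.37, SE, 95% interval 0.36 to 1.92, limma adjusted p = 0.463). UGT74C1, which glucosylates the aliphatic core structure, gave 478 and 553 against 330.2 and 369.5, a difference of 0.56 with a 95% interval of −0.15 to 1.27. Its WT_miR signals of 986 and 1142 were above those of both constructs. Against WT_miR, AOP3 and UGT74C1 were called lower in MYB28_like_miR (log2 −1.76 and −1.60, limma adjusted p = 0.0130 and 0.0127). That comparison called 6.43% of all probe sets. In ATR1_like_miR neither was called against the same WT_miR arrays (log2 −0.62 and −1.05, limma adjusted p = 0.438 and 0.129). GSTU20, a glutathione transferase of the core pathway, gave 2554 and 2253 against 2159 and 3194 and overlapped. AOP1, a relative of AOP3 at the same locus, gave 386 and 397 against 394 and 548 and overlapped as well. GSL-OH, which hydroxylates butenyl glucosinolate, was at the floor on both ATR1_like_miR arrays and just above it on those of MYB28_like_miR.

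On the indolic side a single gene of core glucosinolate synthesis and a single gene of tryptophan synthesis were named on the array. UGT74B1, the glucosyltransferase that acts on both branches, gave 466 and 562 in ATR1_like_miR and 538 and 485 in MYB28_like_miR. The groups overlapped and the difference was 0.00 on the log2 scale, with a 95% interval of −0.84 to 0.84. IGPS, the indole-3-glycerol phosphate synthase of the tryptophan pathway, gave 626 and 492 against 578 and 594, with a 95% interval of −0.59 to 0.43. No gene for indole-specific steps of glucosinolate synthesis was among those measured. Differences of up to about 0.8 and 0.6 on the log2 scale in these genes were thus within the error.

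MYC3 and MYC4 are bHLH factors that bind glucosinolate MYB factors and act with them on the synthesis genes. MYC3 gave 349.6 and 349.3 in ATR1_like_miR and 281 and 237 in MYB28_like_miR, a difference of 0.44 with a 95% interval of −0.09 to 0.97. MYC4 gave 123 and 83.7 against 77.1 and 71.0 and differed by 0.45, with an interval of −0.37 to 1.28. Both were lower in every MYB28_like_miR array than in any ATR1_like_miR array, and neither passed. Over all probe sets, the groups did not overlap in 40.5%, counting both directions. Of the breakdown and transport genes, the transporters GTR1 and GTR2 differed by −0.28 and 0.36, the ER body β-glucosidase PYK10 by −0.28 and the β-glucosidase BGLU28 by −0.12. All 4 overlapped between the groups.

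Sulfate and methionine supply sulfur for glucosinolates, and 8 of the 30 genes listed for them were measured. None of these passed, beside 0.032% of all probe sets. SDI2 (AT1G04770), a gene known to be induced by sulfur deficiency, gave 193 and 184 in ATR1_like_miR and 538 and 394 in MYB28_like_miR. Its signals did not overlap, with a difference of −1.29 ± 0.52 (SE, 95% interval −2.40 to −0.18, limma adjusted p = 0.569). SIR, the sulfite reductase, stood the other way with 1784 and 1462 against 1453 and 922 (log2 0.48, 95% interval 0.01 to 0.95, limma adjusted p = 0.636). The ATP sulfurylases APS3 and APS4, which activate sulfate, differed by −0.06 and −0.16 and overlapped. In methionine metabolism, the cystathionine β-lyase CBL, the methionine γ-lyase MGL and the methionine sulfoxide reductase MSRB6 overlapped as well. MSRB5, another methionine sulfoxide reductase, gave 27.4 and 26.8 against 66.8 and 46.1 without overlap (log2 −1.03, 95% interval −2.18 to 0.11).

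**Figure D3:**
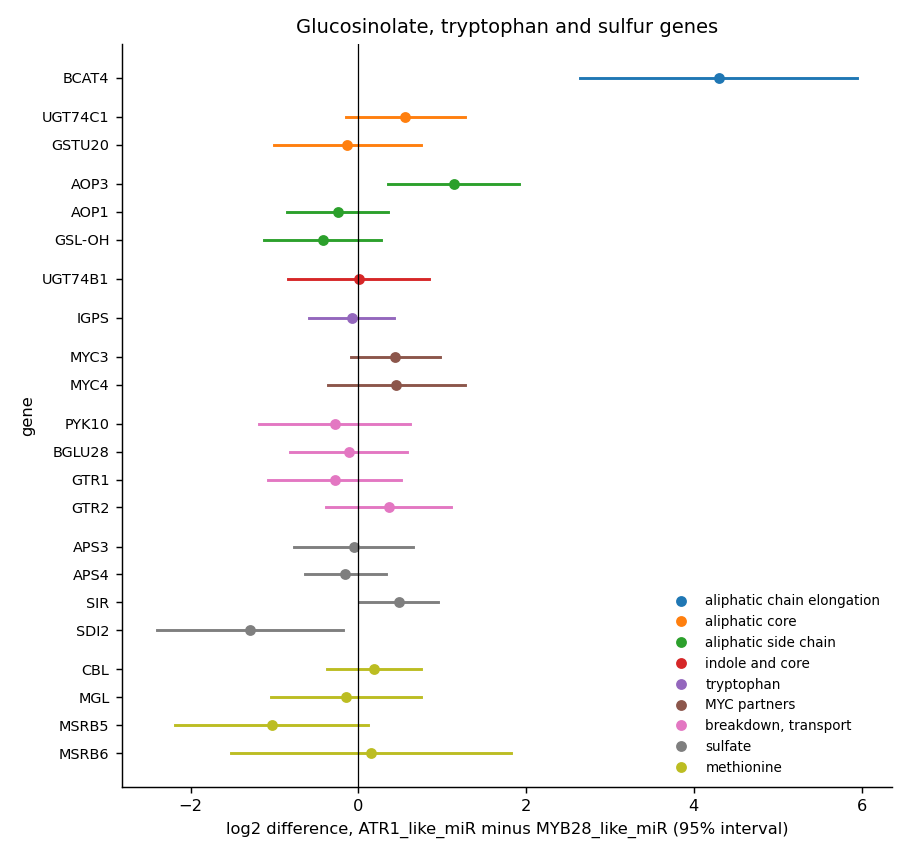
Log2 difference between ATR1_like_miR and MYB28_like_miR (point) with its 95% interval from limma (line) for the measured genes of glucosinolate synthesis, regulation, breakdown and transport, of tryptophan synthesis and of sulfate and methionine metabolism, coloured by list. BCAT4 stands apart at 4.30, AOP3, SIR and SDI2 have intervals that leave out 0, and none of the genes passed the adjusted p of 0.05.

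Of the 273 entries of all 27 gene lists, 51 were named on the array and 49 measured. The limma test called none of them, beside 0.032% of all probe sets. Of the 49, 6 had an unadjusted p under 0.05, beside 7.77% of all probe sets. In 21 of the 49 the groups did not overlap, beside 40.5% of all probe sets. The examples that follow were chosen after their values were seen. All 4 measured cold response genes had a lower fitted level in ATR1_like_miR, beside 6909 of all 15627 probe sets. Their median difference was −1.23. LTI30, a dehydrin, gave 52.0 and 184 in ATR1_like_miR and 571 and 517 in MYB28_like_miR (log2 −2.47 ± 1.07, SE, limma adjusted p = 0.599). COR15A, which protects chloroplast membranes in the cold, gave 55.3 and 96.5 against 272 and 201, while COR15B and COR47 overlapped. The WT_miR arrays themselves gave 2.30 and 101 for COR15A. IMA1 (AT1G47400), a peptide gene of the iron deficiency response, gave 37.2 and 26.8 in ATR1_like_miR, 68.4 and 428 in MYB28_like_miR, and 371 and 319 in WT_miR. The MYB28_like_miR arrays thus fell on either side, replicate 1 near ATR1_like_miR and replicate 2, the array with the conflicting label, near WT_miR. The difference was −2.44 ± 0.66 (SE, limma adjusted p = 0.387), and −1.12 without that array.

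Further list members with arrays that did not overlap, also chosen after their values were seen, differed by less. UGT78D2, a glucosyltransferase of flavonoids and anthocyanins, gave 691 and 678 in ATR1_like_miR and 1005 and 1346 in MYB28_like_miR (log2 −0.76, 95% interval −1.67 to 0.14). The metallothionein MT1C gave 1606 and 1174 against 1910.3 and 2363 (log2 −0.63, 95% interval −1.30 to 0.04). WRKY53, a transcription factor of senescence and defence, gave 25.1 and 33.6 against 37.8 and 51.4 (log2 −0.60). PHV, a leaf polarity factor whose transcript is a target of the plant's own miR165 and miR166, gave 346 and 339 against 277 and 234 (log2 0.43, 95% interval −0.07 to 0.93). Its WT_miR signals of 607 and 540.1 were above those of both constructs.

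Probe sets without a single gene in the annotation were left out of the ranking that follows. The genes nearest to the threshold beyond those already named included 10 that were lower in ATR1_like_miR, none of which passed. PDF1.4, a plant defensin, gave 32.2 and 21.5 in ATR1_like_miR, 125 and 207 in MYB28_like_miR, and 26.6 and 23.3 in WT_miR. Its signal was 6.11-fold lower in ATR1_like_miR (limma adjusted p = 0.0646). JRG21, named for its regulation by jasmonate, gave 20.1 and 21.0 in ATR1_like_miR, 175 and 97.5 in MYB28_like_miR, and 14.0 and 21.2 in WT_miR. This was a 6.35-fold difference (limma adjusted p = 0.127). AT5G43450, without a symbol, gave 11.99 and 25.2 in ATR1_like_miR, 123 and 141 in MYB28_like_miR, and 11.7 and 30.6 in WT_miR (6.68-fold, limma adjusted p = 0.0725). With 1 of its ATR1_like_miR arrays at the floor, that fold depends on the floor in part. In all 3 the ATR1_like_miR arrays lay near WT_miR and did not overlap with MYB28_like_miR. The remaining 7 genes lower in ATR1_like_miR were AT2G37130, AT5G18310, AT5G44580, AT5G50335, AT4G28290, AT3G19010 and CRR42, a gene for a chloroplast protein. Their limma adjusted p ran from 0.267 for AT2G37130 to 0.357 for AT3G19010. AT2G37130 gave 19.1 and 4.77 against 49.4 and 96.6, and with 1 ATR1_like_miR array at the floor its 4.50-fold difference depends on the floor in part. The smallest difference was that of CRR42, at 1.82-fold. AT5G50335 was at the floor on both ATR1_like_miR arrays, so its estimated 3.31-fold difference depends on the floor (log2 −1.73 ± 0.43, SE).

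Toward higher signal in ATR1_like_miR the 9 remaining genes were AT5G14610, AT1G60200, AT5G05550, AT4G38380, AT3G19740, AT2G07360, AT3G13070, AT3G54190 and FU, a kinase gene needed for cytokinesis. AT1G60200 gave 89.6 and 93.9 in ATR1_like_miR, 18.6 and 12.9 in MYB28_like_miR, and 177 and 180.3 in WT_miR. AT2G07360 gave 244 and 237 in ATR1_like_miR and 106 and 18.9 in MYB28_like_miR, so the size of its 5.37-fold difference rests on MYB28_like_miR replicate 2 in part. AT5G14610 gave 448 and 382 against 200.4 and 177, and FU gave 128 and 131 against 67.8 and 39.8. AT5G05550, with 69.5 and 127 against 33.5 and 13.5, had 1 MYB28_like_miR array at the floor, as did AT1G60200 and AT3G19740. Their limma adjusted p ran from 0.114 for AT5G14610 to 0.357 for AT3G54190. AT3G19740, with 43.4 and 40.8 against 20.3 and 10.4, lies close to BCAT4 on chromosome 3.

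The 27 probe sets named above by rule or as called were chosen for their difference between the constructs, so their position relative to WT_miR is a description. The comparison of MYB28_like_miR with WT_miR called 18 of the 27, beside 6.43% of all probe sets, and that of ATR1_like_miR with WT_miR called 3, beside 2.02%. The called differences from WT_miR in ATR1_like_miR were those of psbA, AT4G38380 and 259553_x_at. Both counts rest on the same 2 WT_miR arrays.

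Genes encoded in the plastid are transcribed without the poly(A) tails of nuclear messages, and their share of signal can vary between RNA preparations. Their median log2 signal was 9.90 and 10.88 on the ATR1_like_miR arrays and 10.37 and 9.46 on the MYB28_like_miR arrays, against 4.64 and 5.48 on the WT_miR arrays. The constructs thus overlapped with each other and both stood far above WT_miR. High values were not limited to the constructs. Wild type arrays of another experiment in the series (WT_MYB29_MYB76) gave 11.34, 9.97 and 8.08. Those of WT_ATR1_MYB51 gave 6.40 and 5.53, and the overexpressor arrays of the series also lay below both constructs. What the gap to WT_miR contributed to the comparisons with WT_miR was not tested. Between the constructs none of 68 measured plastid-encoded genes passed in the limma test, beside 0.032% of all probe sets. An unadjusted p under 0.05 was seen in 5, a share near the 7.77% of all probe sets. Of the 68, 45 were higher and 23 lower in ATR1_like_miR, with a median of 0.31 beside 0.05 for all probe sets. Of all 15627 probe sets, 8718 were higher and 6909 lower.

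The nearest to the threshold was psbA, which encodes the D1 protein of the photosystem II reaction centre. Its signal was 1938 and 1455 in ATR1_like_miR, 281 and 399 in MYB28_like_miR, and 144 and 215 in WT_miR. The groups did not overlap, and the difference was 5.01-fold (log2 2.33 ± 0.42, SE, limma adjusted p = 0.0646). Without MYB28_like_miR replicate 2 it was 2.58 (limma adjusted p = 0.176). By class, the median was 0.63 for the 15 photosystem II genes and 0.65 for the 4 RNA polymerase genes. It was 0.34 for the 6 ATP synthase genes, 0.24 for the 15 ribosomal protein genes, 0.22 for the 9 NDH complex genes and 0.21 for the 6 cytochrome b6f genes. The 5 photosystem I genes had a median of −0.18, and the 8 remaining genes, rbcL among them, one of 0.81. psbC, which encodes the CP43 antenna protein, gave 439 and 2108 in ATR1_like_miR and 278 and 123 in MYB28_like_miR, so its difference of 2.38 rests mainly on ATR1_like_miR replicate 2. Among the ribosomal protein genes, rpl36 gave 3165 and 2143 against 1629 and 267, so its difference rests in large part on MYB28_like_miR replicate 2. The photosystem I genes were spread: psaB, for a core subunit, gave 5102 and 6096 against 6297 and 6311. In contrast psaA, for the other core subunit, gave 621 and 1921 against 906 and 111, a difference of 1.78 whose arrays overlapped.

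**Figure D4:**
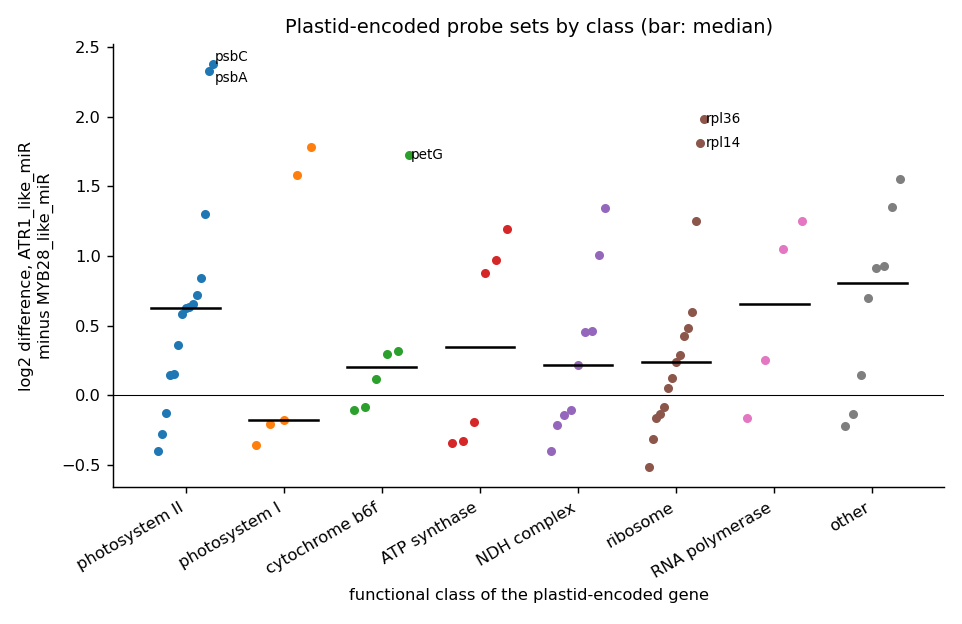
Log2 difference between ATR1_like_miR and MYB28_like_miR (vertical axis) for the 68 measured plastid-encoded genes, 1 point per gene, grouped by the complex they encode, with the class median as a bar. psbC and psbA reach 2.38 and 2.33 and rpl36 1.98, while the photosystem I median lies below 0 at −0.18. MYB28_like_miR replicate 2, the array with the conflicting label, is included.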

How the data were processed

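Signals were deposited as 1 linear intensity per probe set and array, made with MAS5 per the submitters' processing notes, with no version given. The authors scaled each array so that the mean left after trimming 2% at each end is 250, as the deposited values show. Only relative levels can therefore be compared. Arrays were grouped by title into 9 groups.

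Signals below an array's 20th percentile were raised to it and log2 was taken. Probe sets that reached the 40th percentile on at least 2 arrays were kept, without the 64 controls, which left 15627 of 22810. Group means over all 19 arrays were estimated in limma 3.58.1 (eBayes with trend) under R 4.3.3, with 10 residual and 5.62 prior degrees of freedom. P-values were two-sided, with Benjamini-Hochberg adjustment across the 15627 probe sets, and an adjusted p under 0.05 was a call. The model was run on simulated data with independent noise for each probe set and array. Shifts shared by many probe sets of an array were not simulated, so that run does not cover them. The number of arrays limits the precision. Figures were drawn with matplotlib 3.10.9.

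Names came from the platform annotation, updated through gene identifiers to RefSeq genes of TAIR10.1. Of the probe sets tested 8551 had 1 gene found there, 26 had 1 gene not found, 311 had several and 6739 were not listed. The rule for naming took the 12 probe sets of 1 gene nearest to or past the threshold in each direction, the measured glucosinolate, tryptophan, sulfate and methionine genes, and up to 2 called probe sets without a gene in each direction. Members and lists were chosen with earlier results of these data known. Alternatives varied the floor, the filter, the scaling, the arrays fitted, the replicate block and a covariate for plastid-encoded signal.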

Additional observations from a re-analysis of the deposited data

How the results depend on the processing

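With 2 arrays a group the number of calls depended on the setting, while the direction of the called probe sets did not change under any of the 15 alternatives. The count of 5 became 1 with the floor at the 10th percentile, 10 without a filter on dim probe sets, 2 with the filter at the 60th percentile and 13 with each array divided by its median. It was 15 with only the 6 arrays of the experiment and 43 with only the 4 arrays compared, which estimate the spread from fewer arrays. Leaving out 1 array at a time gave 1 to 24 calls, the highest without MYB28_like_miR replicate 1 (17 higher and 7 lower in ATR1_like_miR). The cause of these changes was not tested. With log2(signal + 16) in place of the floor, quantile normalization or no trend the count was 5, and with the plastid covariate it was 7. With the replicate number as a block 4 were called, 2 of them among the 5. The deviations of same-numbered arrays of the 2 constructs correlated at −0.218, so the numbers were not taken as pairs, and a crossed block, chosen after seeing the data, gave 32 calls. Probe set 267053_s_at was called in 14 of 15 alternatives, AT1G77030 in 13, 254805_at in 10, 259553_x_at in 9 and AT4G12500 in 9 of the 14 that tested it. BCAT4 was called in 3 and AT4G12490 in 5.

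Over 57 genes there were 845 values, of which 787 kept direction and side of the threshold, 19 lost a call, 20 gained one and 19 changed sign. All sign changes were in genes that were not called. UGT74B1 became −0.030 with quantile normalization, −0.056 with median scaling and −0.16 with the plastid covariate. GSTU20 became 0.0065 with quantile normalization, and MSRB6 −0.088 with the plastid covariate. Leaving out each of the 4 arrays in turn gave ranges across 0 for 12 genes. They were −0.41 to 0.15 for GSTU20, −0.13 to 0.14 for UGT74B1, −0.25 to 0.096 for IGPS and −0.68 to 0.079 for COR47. They were −0.32 to 0.084 for BGLU28, −0.73 to 0.16 for GTR1, −0.14 to 0.86 for GTR2 and −0.61 to 0.039 for PYK10. They were −0.0016 to 0.38 for CBL, −0.47 to 0.18 for MGL, −0.23 to 0.53 for MSRB6 and −0.19 to 0.070 for APS3.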

Other observations

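Some gene families with at least 8 measured members leaned to one side between the constructs, although no member was called by limma. These families were picked out after their values were seen and carry no test. Over all 15627 probe sets tested, 8718 were higher and 6909 lower in ATR1_like_miR. Of 8 α-expansin genes, which encode proteins that loosen the cell wall, 7 had a lower level in ATR1_like_miR, with a median log2 difference of −0.45. EXPA15 gave 747 and 647 in ATR1_like_miR and 978 and 1247 in MYB28_like_miR, below 2273 and 2085 in WT_miR. EXPA8 gave 309 and 358 against 562 and 618, without overlap. The groups did not overlap in 5 of the 8 α-expansin genes, beside 40.5% of all probe sets. Of 10 SWEET sugar transporter genes 9 were lower in ATR1_like_miR, with a median of −0.35. SWEET11, which loads sucrose for transport in the phloem, gave 114 and 104 against 193 and 183. SWEET1 gave 1195 and 1435 against 1568 and 1793, so that neither overlapped. In all, 4 of the 10 SWEET genes did not overlap, a share near the 40.5% of all probe sets. Of 12 genes grouped only by a symbol that opens with UBP, 11 were higher in ATR1_like_miR, with a median of only 0.17. The groups did not overlap in 2 of the 12, beside 40.5% of all probe sets.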
